A study of Homo sapiens with 8 samples.

Results

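The genes described here are 10 chemokines that epithelial cells of the gut can make, namely CXCL1, CXCL2, CXCL3, CXCL5, CXCL8, CXCL10, CXCL16, CCL2, CCL20 and CCL28. They were taken by gene symbol from a table of read counts, in which each symbol had its own row, so that 10 of 54261 genes were used. A minimum of 10 counts in 2 libraries or more was met by 8 of the 10 genes among the 6 libraries of colorectal cancer cells and by 7 among the 5 untreated libraries, and CXCL10 and CCL20 reached 10 counts in no library.

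To find circular RNAs that differ between normal and cancer lines, the study sequenced total RNA, after removal of ribosomal RNA, from cell lines. Its methods give the same serum-supplemented medium for NCM460, HIEC6, DLD1 and HCT8, and do not list HCT116 there. The normal group held NCM460 and HIEC6 (n = 2 lines), which the labels call intestinal epithelial lines, and the CRC group held the untreated colorectal cancer lines DLD1, HCT116 and HCT8 (n = 3 lines). The hypoxia group held the same cancer lines under hypoxia (n = 3 libraries), with the oxygen level and the duration not given in the sources used here. Each line or treatment was 1 library, so that p-values rest on differences among cell lines and not on repeat cultures of a line. The study's methods give HCT8 as wild type for p53 and mutant for APC, and DLD1 as mutant for both. They give no genotype for HCT116 or for the normal lines. DLD1 and HCT8 are known from cell repositories as lines that share a genetic origin, which was not examined here.

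Chemokines are small secreted proteins that form gradients and draw in cells bearing the matching G protein-coupled receptor. CXCL1, CXCL2, CXCL3, CXCL5 and CXCL8 carry the ELR motif, bind CXCR2 and attract neutrophils, and NF-κB can induce many of their genes, which stand in one cluster on chromosome 4. In the gut, CCL28 draws CCR10-bearing plasma cells to the mucosa, CCL20 draws CCR6-bearing lymphocytes and dendritic cells, CXCL10 is the interferon-induced ligand of CXCR3, CCL2 attracts monocytes through CCR2, and CXCL16 is a membrane-anchored ligand of CXCR6 that can be shed.

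Total counts lay between 45519306 and 57374239 per library, so 3 counts, taken as the floor of detection, corresponded to 0.0523 to 0.0659 CPM (counts scaled to a column total of 1000000). Intervals and floors in the text cover counting error only. The defining markers did not follow every label. EPCAM, an epithelial adhesion protein, was at 0.176 CPM and CDH1 at 3.03 CPM in HIEC6, against 301 and 147 CPM in NCM460, while the mesenchymal filament gene VIM was at 1223 CPM in HIEC6 and 8.62 CPM in NCM460. The keratin genes KRT8 and KRT18 went the other way, at 4290 and 3725 CPM in HIEC6 against 1864 and 1574 CPM in NCM460, and the 10 epithelial markers summed to 8087 CPM in HIEC6 and 5697 CPM in NCM460. Across genes, log2(CPM + 1) of NCM460 correlated at 0.994 with HCT116, a line of the other group, and at 0.924 with HIEC6. The untreated and the hypoxia libraries of the cancer lines carried no run label in common, so that sequencing run and treatment cannot be told apart. In bulk RNA, fewer expressing cells and less RNA per cell cannot be told apart either. The leukocyte markers PTPRC and CD3E were at or under 0.106 and 0.0203 CPM in every library, and the 8 leukocyte markers summed to between 1.01 and 4.75 CPM.

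The upstream sequences of the neutrophil-attracting genes are shown because these genes share a promoter element and yet differed in level by a wide margin. RefSeq windows of 250 bases before and 50 after the annotated start (GRCh38.p14) were found for 8 of the 10 genes, all but CXCL16 and CCL2. Capitals mark the 11 bases that match the NF-κB consensus on both strands, the 10-base matches of the strands overlapping at all but the outer base. Of each window, 100 bases around this match are printed. In the order printed, these stretches lie at chr4:73869294-73869393 (plus strand), chr4:74099194-74099293, chr4:74038689-74038788 and chr4:73998689-73998788 (minus strand), and each reads 5′ to 3′ along its gene.
CXCL1: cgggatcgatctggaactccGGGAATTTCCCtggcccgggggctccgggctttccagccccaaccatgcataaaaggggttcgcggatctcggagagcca
CXCL2: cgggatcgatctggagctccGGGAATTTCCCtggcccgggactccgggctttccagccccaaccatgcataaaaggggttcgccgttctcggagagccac
CXCL3: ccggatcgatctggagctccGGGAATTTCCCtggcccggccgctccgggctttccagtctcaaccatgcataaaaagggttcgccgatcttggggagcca
CXCL5: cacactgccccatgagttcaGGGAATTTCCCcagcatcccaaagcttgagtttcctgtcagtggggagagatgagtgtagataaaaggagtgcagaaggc

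The first capital stood 79 bases before the start in CXCL1, 78 in CXCL2, 79 in CXCL3 and 91 in CXCL5. In a gapped alignment, the printed stretches of CXCL1 and CXCL2 were the same in 94.1% of columns, those of CXCL1 and CXCL3 in 90% and those of CXCL1 and CXCL5 in 49.5%. CXCL10 had matches at 177 and 122 bases and CCL20 at 79 bases before the start. The consensus was held by 5.91% of the 35116 promoter windows of the same length. A match is a description of these letters and not evidence of binding.

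The window of CXCL8, the gene with the widest difference between an untreated library and its hypoxia partner among the members of the cluster, had no exact match to this consensus. Its printed bases do hold ggaatttcc, the inner bases of the GGGAATTTCCC above, with t at either end. The lack of an exact match therefore does not show that CXCL8 has no NF-κB element. The window lies at chr4:73740319-73740618 on the plus strand, and the 150 bases printed are chr4:73740419-73740568. The first capitals mark the AP-1 element TGACTCA, which was searched with its complement and held by 4.95% of windows. The second mark TATAAA, held by 11.5%.
CXCL8: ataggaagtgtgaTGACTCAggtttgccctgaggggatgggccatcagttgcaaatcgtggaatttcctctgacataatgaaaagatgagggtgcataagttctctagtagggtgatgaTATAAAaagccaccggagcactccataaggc

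CCL28 had annotated starts in 2 windows. The window nearer the gene's 3′ end, at chr5:43397088-43397387 on the minus strand with chr5:43397088-43397337 printed, held 5 matches to the core of the hypoxia response element, ACGTG or GCGTG on either strand, which are in capitals (their complements read CACGT or CACGC). The window of the other start held 0. Such a match is common, being held by 48.4% of all windows, and counts per gene do not say which start was used.
CCL28: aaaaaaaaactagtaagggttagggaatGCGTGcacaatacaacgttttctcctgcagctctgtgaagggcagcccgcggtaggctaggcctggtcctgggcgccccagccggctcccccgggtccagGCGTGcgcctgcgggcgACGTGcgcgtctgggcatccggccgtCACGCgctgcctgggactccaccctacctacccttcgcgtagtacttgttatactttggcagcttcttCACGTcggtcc

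**Figure D1:**
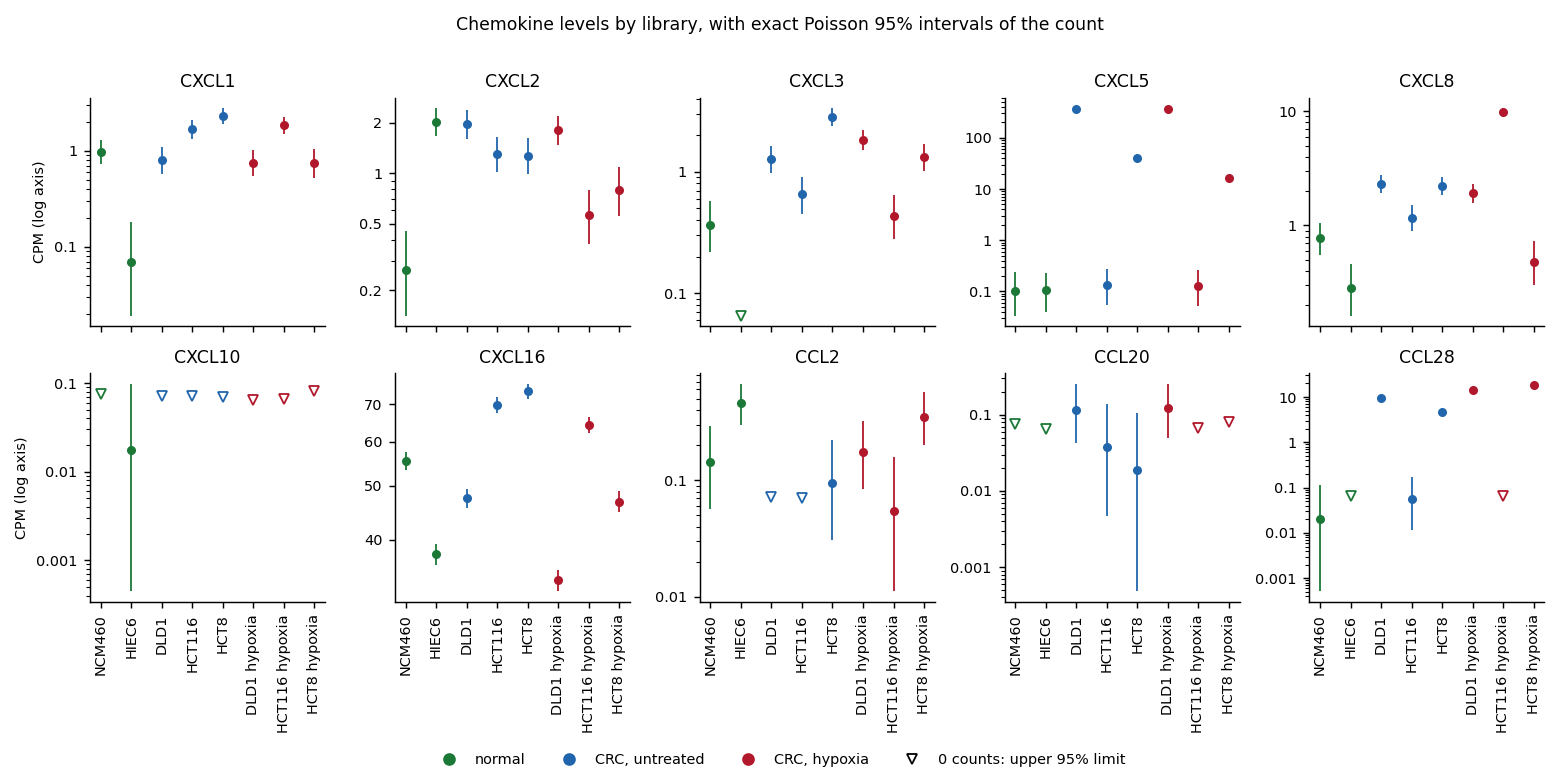
Level of each chemokine in the 8 libraries in CPM on a log axis, with exact Poisson 95% intervals of the count; open triangles are the upper limits of libraries with 0 counts. CXCL5 spans from 0.102 CPM in NCM460 to 373 CPM in DLD1, while CXCL16 stays between 33.8 and 73.8 CPM.

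Per kilobase of exon, CXCL16 was the highest of the 10 genes in NCM460, HIEC6, HCT116 and HCT8, with 19.8, 13.5, 25.0 and 26.4 CPM per kb. In DLD1, CXCL5 led with 153 CPM per kb against 17.0 for CXCL16. CXCL5 took 85.5% of the reads counted on the 10 genes in DLD1 and 31.5% in HCT8, but 0.175% to 0.26% in the other untreated lines. The remaining genes were low, and only CCL28 in DLD1 and HCT8, with and without hypoxia, and CXCL8 in HCT116 under hypoxia passed 3 CPM.

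CXCL5 (ENSG00000163735, chromosome 4, 74861359 to 74864394, minus strand, GRCh37) encodes a neutrophil attractant also known as ENA-78. It had 5 counts in NCM460, 6 in HIEC6 and 7 in HCT116, against 19101 in DLD1 and 2111 in HCT8. In CPM these were 0.102, 0.106, 0.134, 373 and 40.1. DLD1 was 9.3-fold above HCT8 and HCT8 was 299-fold above HCT116, while the 3 low lines did not separate within their counting intervals. Under hypoxia the counts were 21280 in DLD1, 7 in HCT116 and 734 in HCT8, or 371, 0.126 and 16.1 CPM. Hence the libraries high and low for CXCL5 were those of the same lines with and without hypoxia. Of the possible 50-base reads from its transcripts, 12.7% also match other genes, mostly an antisense gene (ENSG00000287037) that overlaps CXCL5, and the strand used in counting is not given in the sources used here.

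The neighbours of CXCL5 did not all share its level. The cluster from CXCL8 to CXCL2 (chromosome 4, 74606236 to 74964913, GRCh37, 359 kb) holds 10 protein-coding genes. PF4, which encodes platelet factor 4, had 155 counts in DLD1, 62 in HCT8 and 0 in the other untreated lines, and 157, 0 and 22 in DLD1, HCT116 and HCT8 under hypoxia. PPBP, which lies between PF4 and CXCL5 and encodes the precursor of another platelet chemokine, had 0 counts in all 8 libraries, which allows up to 0.0523 to 0.0659 CPM. CXCL6, the closest relative of CXCL5 and a bearer of the same consensus 90 bases before its start, had at most 5 counts, in HCT116 under hypoxia.

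**Figure D2:**
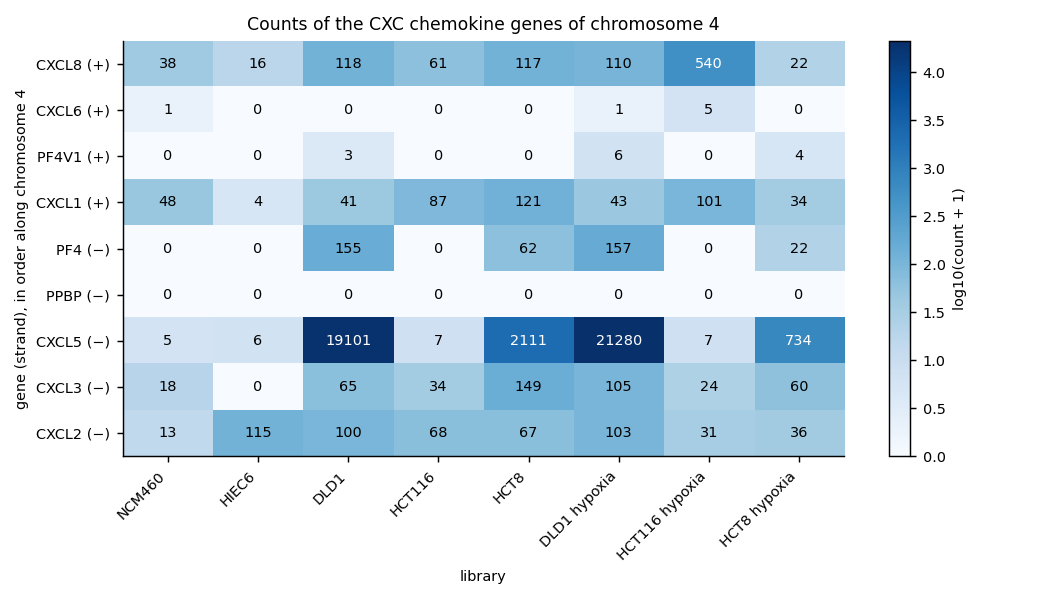
Read counts of the listed CXC chemokine genes in their order along the chromosome 4 cluster (rows) in the 8 libraries (columns), with shading by log10(count + 1). CXCL5 and PF4 have high counts in DLD1 and HCT8 with and without hypoxia, and PPBP, between them, has 0 throughout.

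CCL28 (ENSG00000151882, chromosome 5, 43376747 to 43412493, minus strand) encodes the mucosal chemokine MEC, a ligand of CCR10. It had 1 count in NCM460, 0 in HIEC6 and 3 in HCT116, against 486 in DLD1 and 248 in HCT8. DLD1 was at 9.49 CPM (exact Poisson 95% interval 8.66 to 10.4) and HCT8 at 4.71 CPM (4.14 to 5.33). In the hypoxia libraries it had 812 counts in DLD1, 0 in HCT116 and 834 in HCT8, which are 14.2, 0 and 18.3 CPM. The order of DLD1 and HCT8 was thus reversed between the untreated and the hypoxia libraries.

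CXCL8 (ENSG00000169429, chromosome 4, 74606236 to 74609433, plus strand) encodes interleukin-8. NCM460 had 0.773 CPM, HIEC6 0.282, DLD1 2.30, HCT116 1.17 and HCT8 2.22. DLD1 and HCT8 did not separate, nor did HCT116 and NCM460, and HIEC6 was the lowest. Under hypoxia CXCL8 was at 1.92 CPM in DLD1, 9.75 in HCT116 and 0.483 in HCT8. The HCT116 hypoxia library, with 540 counts, was the highest of the 8 and the HCT8 hypoxia library, with 22, the second lowest.

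CXCL1 (chromosome 4, 74735110 to 74737025, plus strand), CXCL2 (74962757 to 74964913, minus strand) and CXCL3 (74902306 to 74904524, minus strand) encode the GRO chemokines. CXCL1 had 48, 4, 41, 87 and 121 counts in NCM460, HIEC6, DLD1, HCT116 and HCT8, and 43, 101 and 34 in DLD1, HCT116 and HCT8 under hypoxia. CXCL2 had 13, 115, 100, 68 and 67 counts in the untreated lines in the same order, and 103, 31 and 36 under hypoxia. CXCL3 had 18, 0, 65, 34 and 149, and 105, 24 and 60 under hypoxia. The order of the lines differed between these related genes. CXCL1 was highest in HCT8 and HCT116, CXCL3 in HCT8 alone, and CXCL2 was lowest in NCM460 with the other 4 lines overlapping from one to the next. HIEC6 showed the widest divergence, with CXCL2 at 2.03 CPM, CXCL1 at 0.0705 CPM and CXCL3 at 0 counts. Of their 50-base stretches, 4.57% for CXCL1, 13.4% for CXCL2 and 6.01% for CXCL3 occur in another of them, so part of these counts could be assigned to a relative.

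CXCL16 (ENSG00000161921, chromosome 17, 4636828 to 4643223, minus strand) had the narrowest range of the members detected in all libraries. NCM460 had 55.4 CPM, HIEC6 37.7, DLD1 47.5, HCT116 69.9 and HCT8 73.8, and it was at 33.8, 64.2 and 46.8 CPM in DLD1, HCT116 and HCT8 under hypoxia. The range over the 5 untreated lines was narrow beside that of CXCL5, although only HCT8 and HCT116 overlapped within their counting intervals. MED11 and ZMYND15 overlap CXCL16 on the opposite strand, so reads from the overlapping parts cannot be told apart without strand. Of the 50-base stretches of CXCL16 transcripts, 3.77% also occur in other genes, these 2 among them.

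CCL2 (chromosome 17, 32582293 to 32584227, plus strand) had 26 counts in HIEC6, 7 in NCM460, 5 in HCT8 and 0 in DLD1 and HCT116, and 10, 3 and 16 in DLD1, HCT116 and HCT8 under hypoxia. HIEC6, at 0.458 CPM, was above the other untreated lines. The 10 mesenchymal markers summed to 1402 CPM in HIEC6 against 11.7 to 105 CPM in the other untreated lines, and to 93.8, 168 and 25.0 CPM in DLD1, HCT116 and HCT8 under hypoxia; their part in the CCL2 values was not tested. CCL20 (chromosome 2, 228670455 to 228682280, plus strand) had 6 counts in DLD1, 2 in HCT116, 1 in HCT8 and 7 in DLD1 under hypoxia, and 0 in the other 4 libraries. CXCL10 (chromosome 4, 76942271 to 76944650, minus strand, outside the cluster) had 1 count in HIEC6 and 0 in the other 7 libraries. At this depth neither CCL20 nor CXCL10 could be compared between lines.

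The members were then counted by the line in which each was over 2-fold above every other untreated line, out of the 8 with at least 10 counts in at least 1 untreated line. With 1 library a line these counts have no test. DLD1 had 2 (CXCL5 and CCL28), against 3.8% of the 22925 genes that could be counted. HCT8 had 1 (CXCL3), against 5.83%, and HIEC6 had 1 (CCL2), against 7.33%. NCM460 and HCT116 had 0, against 2.74% and 1.84% of genes. CCL28 passed narrowly, being 2.01-fold higher in DLD1 than in HCT8, and it did not pass when the 10 largest genes were left out of the column totals.

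After the values had been seen, the genes high in both DLD1 and HCT8 were also counted, as those over 2-fold above NCM460, HIEC6 and HCT116 in each. They were 2 of the 8 members (CXCL5 and CCL28), beside 5.01% of all genes. Among other chemokine ligands the pattern was held by 2 of 8, PF4 and CX3CL1, which encodes the membrane-bound ligand fractalkine. CX3CL1 was at 6.52 CPM in DLD1, 3.99 in HCT8 and at most 0.106 in the other untreated lines. Among chemokine receptors it was held by 2 of 12, namely ACKR2, a scavenging receptor, and CCRL2, an atypical receptor, the latter at 11.0 CPM in DLD1, 1.41 in HCT8 and at most 0.176 elsewhere among the untreated lines. NFKBIZ, a nuclear regulator of NF-κB, was the only one of 23 NF-κB genes, and 4 of 10 epithelial markers (CDH1, KRT20, CDX2 and VIL1) had the pattern too. SLC2A1 did so among the 10 hypoxia genes and CD14 among 5 leukocyte markers. No gene did so among 6 shedding, 8 mRNA decay, 14 interferon, 8 mesenchymal and 4 endothelial genes. CXCL5, CCL28 and these epithelial markers were thus high in the same lines, and the part of epithelial state in the chemokine values was not tested. The part of the genetic origin that DLD1 and HCT8 are known to share was not tested either.

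**Figure D3:**
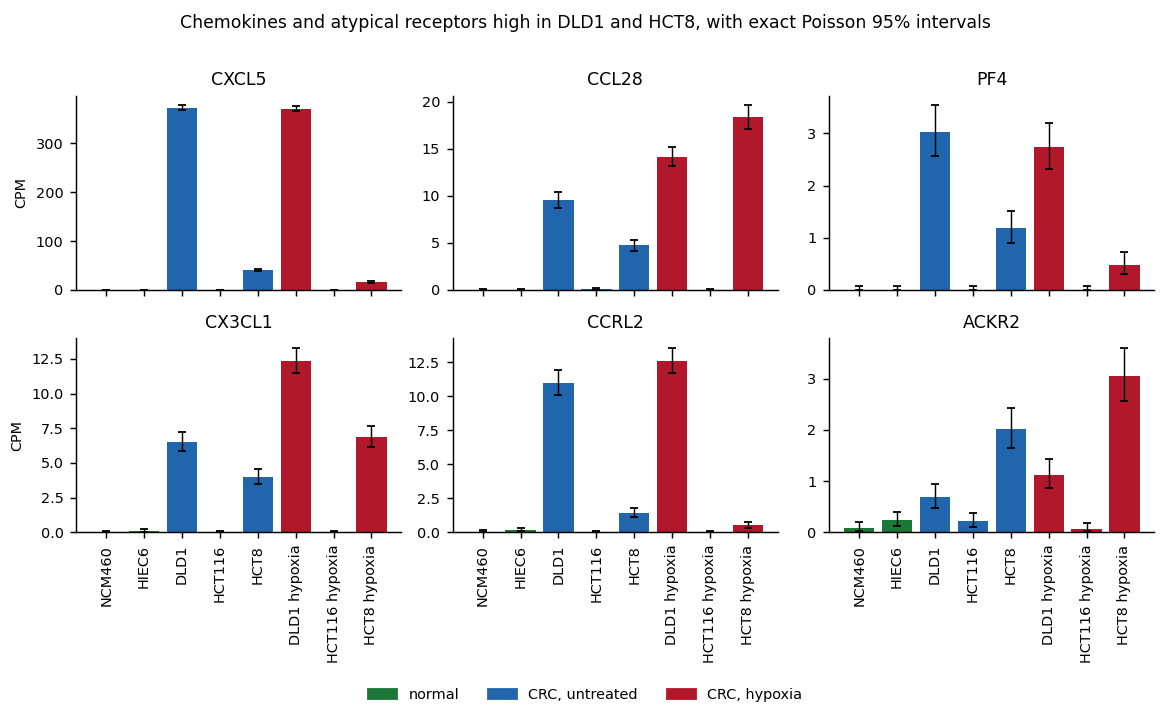
CPM of CXCL5, CCL28, PF4, CX3CL1, CCRL2 and ACKR2 in the 8 libraries (bars, by group) with exact Poisson 95% intervals. Each gene is higher in the untreated DLD1 and HCT8 bars than in the untreated NCM460, HIEC6 and HCT116 bars, and CCL28, CX3CL1, CCRL2 and ACKR2 have their highest bar in a hypoxia library.

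To ask whether the CRC lines differed from the normal lines as a group, edgeR's quasi-likelihood test was run on the 5 untreated libraries. It called 0 of 19964 genes at a Benjamini-Hochberg adjusted p of 0.05 (0%), 542 having an unadjusted p under it, and 0 of the 7 members that could be tested. All 7 members had fold changes above 0, with a median log2 fold change of 1.68 beside -0.00480 over all genes tested. However, CXCL5 and CCL28 entered the test only through their counts in DLD1 and HCT8. CCL2, which was highest in the normal line HIEC6, missed the count minimum. Without that minimum, 8 of the 10 members were above 0 and 2 below, so the shared direction of the 7 depends on the filter. The log2 fold change was 10.17 (standard error 3.57) for CXCL5 and 8.46 (2.75) for CCL28, both with adjusted p = 0.999, and these were the only members with an unadjusted p under 0.05. HCT116 stood with the normal lines for both genes, so that the spread within the CRC group was wide, at 138 ± 205 CPM for CXCL5 and 4.75 ± 4.72 CPM for CCL28 (SD, n = 3).

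For the others the log2 fold change was 2.95 (standard error 1.81) for CXCL3, 1.68 (0.79) for CXCL8, 1.46 (1.22) for CXCL1, 0.28 (0.34) for CXCL16 and 0.15 (1.03) for CXCL2. In the CRC lines CXCL8 was at 1.90 ± 0.634 CPM (SD, n = 3), against 0.527 ± 0.347 CPM in the normal lines (SD, n = 2). In CPM the groups did not overlap for 4 of the 7 members, CXCL3, CXCL5, CXCL8 and CCL28, all higher in CRC, beside 18.2% of all genes tested, in either direction. For each of the 4, however, HCT116 did not separate from NCM460 within the counting intervals, as with 7 against 5 counts for CXCL5 and 3 against 1 for CCL28, and nothing is read from this count. DESeq2 called CXCL5 (log2 fold change 10.17, adjusted p = 0.000389) and CCL28 (8.74, adjusted p = 0.0255), where it called 0.716% of genes. Both calls rest on DLD1 and HCT8 and not on HCT116. DLD1 and HCT8 are known to share a genetic origin, so they may not count as independent lines. With edgeR no member was called with NCM460 left out or with HCT116 left out, the libraries that resembled each other. CXCL5 then had log2 fold changes of 10.07 and 10.75, CCL28 of 10.90 and 9.03, CXCL3 of 9.29 and 3.29, CXCL1 of 4.17 and 1.36, and CXCL8 of 2.46 and 1.90. The value of CXCL3 without NCM460 was set against a single normal line with 0 counts. CXCL2 turned to -0.68 without NCM460 and was 2.41 without HIEC6.

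**Figure D4:**
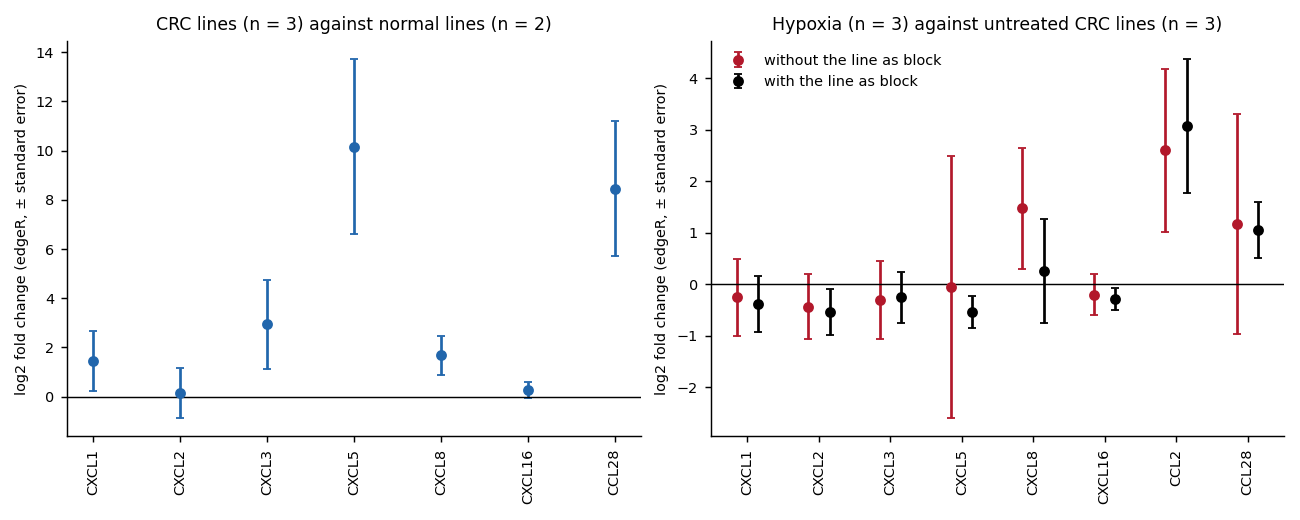
Log2 fold change of each tested member with its standard error from edgeR, for CRC lines over normal lines (left) and for hypoxia over untreated cancer lines without and with the cell line as a block (right). No member passed an adjusted p of 0.05 in any of these fits.

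In each cancer line the hypoxia library was set against the untreated one. With 1 library a side there is no test, and members with at least 10 counts in either library were counted when past 2-fold on (count + 1). In DLD1, 1 of 8 members was over 2-fold higher under hypoxia, beside 10.7% of genes, and 0 were over 2-fold lower, beside 5.62%. In HCT116, 1 of 5 was higher, beside 12% of genes, and 1 lower, beside 25.3%. In HCT8, 2 of 8 were higher, beside 14% of genes, and 4 were lower, beside 9.35%.

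The member that was higher in DLD1 was CCL2, with 10 counts against 0. Set against the floor of 3 counts in the untreated library it was 2.98-fold higher, which is not a confidence limit. The other members of DLD1 were closer. CXCL5 had a log2 ratio of -0.01 (95% counting interval -0.04 to 0.02), CCL28 of 0.58 (0.41 to 0.74), CXCL3 of 0.52 (0.07 to 0.997) and CXCL16 of -0.49 (-0.58 to -0.40). For CXCL1, CXCL2 and CXCL8 the intervals included 0.

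In HCT116 the member that was higher was CXCL8, at 8.35-fold (log2 ratio 3.04, 95% counting interval 2.68 to 3.47). CXCL2 was 2.33-fold lower (log2 ratio -1.19, interval -1.88 to -0.58), though not past 2-fold with TMM library sizes. CXCL16 had a log2 ratio of -0.12 (-0.19 to -0.06), and CXCL5, CCL28, CCL2, CCL20 and CXCL10 had too few counts in both HCT116 libraries to be set against each other.

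In HCT8 the direction for CXCL8 was the opposite, at 4.6-fold lower under hypoxia (log2 ratio -2.15, interval -2.93 to -1.54). CXCL1 was 3.08-fold lower (log2 ratio -1.59, interval -2.21 to -1.06), CXCL5 2.49-fold lower (-1.31, -1.44 to -1.19) and CXCL3 2.15-fold lower (-1.09, -1.56 to -0.66). All 5 ELR members were therefore lower in the HCT8 hypoxia library, CXCL2 at 1.61-fold without passing 2-fold. CCL28 was 3.89-fold higher there (log2 ratio 1.96, interval 1.75 to 2.17) and CCL2 3.7-fold higher, with 16 against 5 counts. CXCL16 was 1.58-fold lower.

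**Figure D5:**
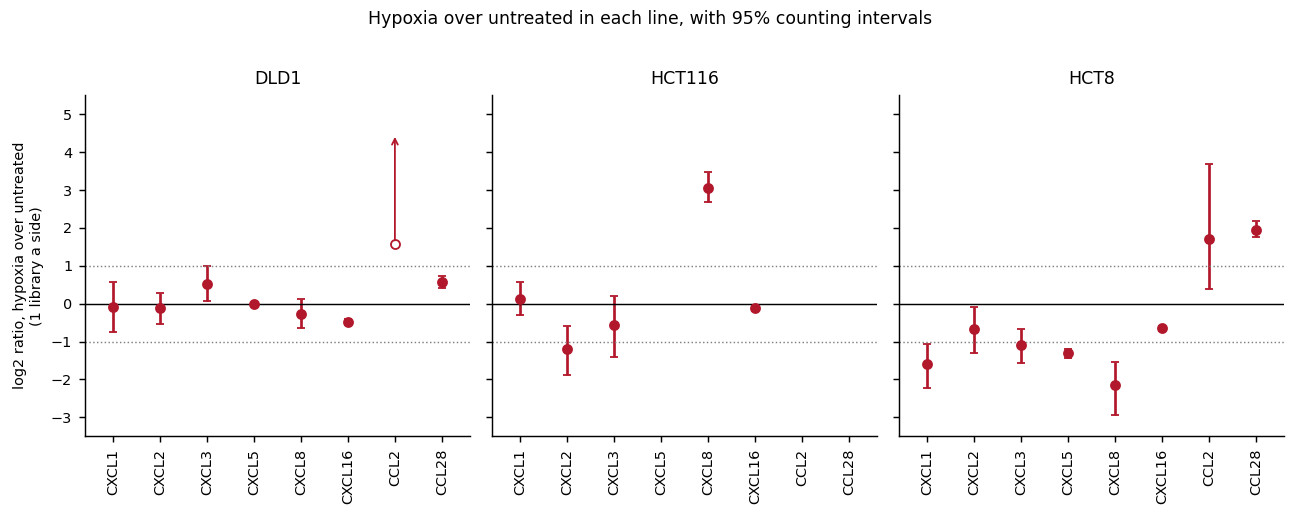
Log2 ratio of hypoxia over untreated for each member with at least 10 counts in either library, in each cancer line, with 95% counting intervals. Dotted lines mark 2-fold. The open point with an arrow is the ratio to the floor of 3 counts, used where the untreated library had 0. CXCL8 lies at 3.04 in HCT116 and at -2.15 in HCT8.

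Over the 3 lines together, edgeR called 0 of 21045 genes without the cell line as a block (0%), where 607 had an unadjusted p under 0.05, and 200 with it (0.95%). Of the 8 members tested it called 0 in either fit, and CCL2 was tested only through its counts under hypoxia. DESeq2 called 0.261% of genes without the block and 7.92% with it, and none of the 8 members in either, with 0 members at an unadjusted p under 0.05 and no adjusted p given for CCL2. In CPM no member had groups that did not overlap, beside 9.5% of genes tested. With the block, the median log2 fold change of the 8 members was -0.27 beside 0.03 over all genes tested.

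CCL2 had the largest value, a log2 fold change of 3.08 with the block (standard error 1.30, unadjusted p = 0.0444, adjusted p = 0.257), and was the only member with an unadjusted p under 0.05 in that fit. However, CCL2 met the count minimum only through the hypoxia libraries. The filter thus favoured this direction, and nothing is read from its rank or its p-value. Its counts were higher under hypoxia in DLD1 and HCT8 and reached 16 at most, and in HCT116, with 3 against 0, they were at the floor. CCL28 followed at 1.06 (standard error 0.54, adjusted p = 0.341), and was higher in the hypoxia library in the 2 lines in which it was detected. CXCL5 was at -0.54 (0.31), CXCL2 at -0.53 (0.45), CXCL1 at -0.37 (0.54), CXCL16 at -0.29 (0.22) and CXCL3 at -0.25 (0.50). For CXCL8 the value was 1.47 (1.17) without the block and 0.26 (1.01) with it, and without the block it turned to -0.64 when the HCT116 hypoxia library was left out. CXCL5 without the block ranged from -4.20 without the DLD1 hypoxia library to 2.86 without the untreated DLD1 library. Because of the opposite directions in HCT116 and HCT8, the common fold change of CXCL8 describes neither line.

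The libraries under hypoxia did differ from their partners in the genes used to check the label. Of 10 hypoxia response genes, 6 rose with the block (CA9, BNIP3, EGLN3, KDM3A, NDRG1 and PDK1) and the median log2 fold change was 3.46. CA9, a carbonic anhydrase, was between 0.0195 and 0.115 CPM in the untreated cancer lines and at 4.22, 18.8 and 3.91 CPM in DLD1, HCT116 and HCT8 under hypoxia. ADM and ANKRD37 had log2 fold changes of 3.26 (adjusted p = 0.0516) and 5.13 (adjusted p = 0.0989) in the same fit, and DESeq2 with the block called all 10. The members that passed 2-fold and those that did not were thus measured in the same libraries as these genes.

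Of 33 other chemokine ligands, 5 could be tested in either comparison and 0 were called, with a median log2 fold change of 1.91 for CRC over normal and -0.06 for hypoxia over untreated with the block. CX3CL1 was at 12.4, 0.0181 and 6.85 CPM in DLD1, HCT116 and HCT8 under hypoxia, with a log2 fold change of 0.93 (standard error 0.40, adjusted p = 0.262). CCL26, an eosinophil attractant, was at 4.39, 0 and 0.171 CPM in the untreated DLD1, HCT116 and HCT8 and at 8.66, 1.06 and 0.308 CPM under hypoxia (2.04, standard error 0.92, adjusted p = 0.286).

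Of 23 chemokine receptors, 7 could be tested for CRC over normal and 8 for hypoxia, and 0 were called, with medians of 0.73 and, with the block, 0.38. CXCR2, the receptor of the ELR chemokines, was at most 0.449 CPM, in DLD1, and CXCR1 had at most 1 count. CXCR6, the receptor of CXCL16, was at most 0.371 CPM, also in DLD1. CCR10, the receptor of CCL28, was between 0.192 and 1.26 CPM in all libraries. CXCR4, whose ligand CXCL12 was at most 0.244 CPM, was at 68.4 CPM in HIEC6 and at 30.3 CPM in HCT116 under hypoxia against 0.345 CPM in the untreated HCT116 (hypoxia log2 fold change with the block 4.84, standard error 1.86, adjusted p = 0.22). That fold change rests on HCT116, since CXCR4 had 0 counts untreated and 3 under hypoxia in DLD1, and 6 and 0 in HCT8.

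Enzymes that shed or cut chemokines were measured beside them. ADAM10, which sheds CXCL16 and CX3CL1, was at 125 to 189 CPM in the untreated lines and at 215, 237 and 266 CPM in DLD1, HCT116 and HCT8 under hypoxia (log2 fold change with the block 0.70, standard error 0.21, adjusted p = 0.139). MMP2 was higher under hypoxia with the block (3.99, standard error 0.71, adjusted p = 0.0497). It was the only 1 of 6 shedding enzymes that edgeR called, where the median was 0.94. MMP2 was at most 0.117 CPM in the untreated cancer lines, and under hypoxia at 2.11 CPM in DLD1, 2.04 in HCT116 and 0.176 in HCT8. Untreated NCM460 was at 1.38 CPM. These libraries at 1.38 CPM or more each carry 2 run labels, and those with 1 run label had at most 8 counts of MMP2. The part of the run in the MMP2 values was not tested. DESeq2 with the block called 3 of the 6, MMP2, ADAM10 (adjusted p = 0.0399) and DPP4 (adjusted p = 0.00298). DPP4 is a peptidase that trims chemokines, and was at 111 CPM in NCM460 and 0.0176 CPM in HIEC6. For CRC over normal lines, 0 of 4 were called by edgeR or DESeq2 (median -1.16).

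Among 24 genes of the NF-κB pathway, 20 could be tested for CRC over normal, with 0 called and a median of -0.36, and 21 for hypoxia, with 2 that rose with the block and a median of 0.14. These were NFKBIA, the inhibitor of NF-κB (log2 fold change 1.01, standard error 0.17, adjusted p = 0.0441), and BCL3, a cofactor of NF-κB (1.33, standard error 0.21, adjusted p = 0.0359). DESeq2 with the block called these and RELA. NFKBIA was between 39.8 and 43.7 CPM in the untreated cancer lines and at 88.6, 68.4 and 74.3 CPM in DLD1, HCT116 and HCT8 under hypoxia. It was higher in all 3 lines, whereas CXCL1, CXCL3, CXCL5 and CXCL8 were lower under hypoxia in HCT8 and CXCL8 higher in HCT116. BIRC3 (1.08, adjusted p = 0.196) was not called. NFKBIZ was at 23.5 and 24.5 CPM in DLD1 and HCT8 and at 2.82 to 5.13 CPM in the other untreated lines (CRC over normal 2.12, standard error 0.83, adjusted p = 0.999).

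Of 8 regulators of mRNA decay, which act on AU-rich chemokine transcripts among others, edgeR called 0 in either comparison, with medians of -0.02 and, with the block, -0.01. ZFP36 (tristetraprolin) was at 229 CPM in HCT116 under hypoxia against 61.5 CPM untreated, in the pair where CXCL8 was higher too. In HCT8 ZFP36 was at 38.2 against 18.0 CPM, and in DLD1 it was nearly level, at 43.6 against 40.4 CPM. Over the 3 lines its hypoxia log2 fold change with the block in edgeR was 1.17 (standard error 0.36, adjusted p = 0.152). DESeq2 with the block called ZFP36 (1.19, adjusted p = 0.0370) and no other of the 8. Of 16 interferon pathway genes 14 could be tested and 0 were called, with medians of 0.02 and 0.00. IFIT1 was at 29.9 CPM in HIEC6 and 2.01 to 10.5 CPM in the other untreated lines. IFNB1 had 0 counts in all libraries, as did TNF of the NF-κB list.

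Among the markers of cell type, KRT19 rose under hypoxia with the block (log2 fold change 1.56, standard error 0.17, adjusted p = 0.0115), 1 of 10 epithelial markers, and FN1 (2.80, standard error 0.42, adjusted p = 0.0295), 1 of 9 mesenchymal markers tested. Their medians were 0.35 and 1.58. DESeq2 with the block called ELF3 and VIL1 beside KRT19, and COL1A1, COL1A2 and PDGFRB beside FN1. FN1 was at 55.8 and 92.6 CPM in the hypoxia libraries of DLD1 and HCT116, which carry a second run label, and at 0.461 CPM in that of HCT8, which does not. NCM460, an untreated library, carries 2 run labels too. The 10 mesenchymal markers summed to 105 CPM there and to 93.8, 168 and 25.0 CPM in DLD1, HCT116 and HCT8 under hypoxia. Among the untreated libraries with 1 run label they summed to 11.7 to 39.2 CPM in the cancer lines but to 1402 CPM in HIEC6. The part of the run in the chemokine values was not tested. Of 5 leukocyte and 3 endothelial markers tested under hypoxia, 0 were called, with medians of 0.25 and 0.69. For CRC over normal the medians were -0.32 for 9 hypoxia, 1.17 for 10 epithelial, -2.34 for 8 mesenchymal, -0.39 for 4 leukocyte and -2.35 for 4 endothelial genes, with 0 called by edgeR. DESeq2 called VIL1 higher in CRC (log2 fold change 9.87, adjusted p = 0.00304) and VIM (-7.97, adjusted p = 0.00127) and CDH5 (-9.95, adjusted p = 0.0141) lower.

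For the 7 members with a mean of at least 1 CPM over the 8 libraries, the genes with the most similar profile were listed by the Pearson correlation of log2(CPM + 1) over 8 libraries, among 14970 genes. These libraries include the same line with and without hypoxia, so they are not independent, and the correlations are descriptions. CXCL5 was most like BATF (0.996), LGR5 (0.993) and TDGF1 (0.992). LGR5, a marker of intestinal stem cells, was at 42.4 CPM in DLD1, 5.91 in HCT8 and at most 0.0407 in the other untreated lines. CCL28 was most like MFSD6L (0.994), VILL (0.993) and DIRAS2 (0.992). VILL, a relative of villin, was at 24.3 CPM in DLD1 and 13.6 in HCT8, and at 35.1 and 40.0 CPM in these lines under hypoxia.

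For the members with a narrower range the closest genes were WDR66 (0.961), FAM89B (0.916) and LOC101928788 (0.914) for CXCL8, LOC107986018 (0.966), ACVR1 (0.942) and RPS10P3 (0.94) for CXCL1, TRP-AGG2-6 (0.953), BRMS1 (0.95) and MSRA (0.945) for CXCL2, BORCS7 (0.968), ANKAR (0.962) and XKRX (0.958) for CXCL3, and FAM222B (0.953), LOC107986852 (0.945) and PLEKHA5 (0.94) for CXCL16. Among the members themselves, CXCL5 and CCL28 correlated at 0.886, CXCL1 and CXCL16 at 0.868, and CXCL1 and CXCL2, whose printed promoter stretches were nearly the same, at -0.40.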

How the data were processed

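Per the labels and the study's methods, total RNA of 8 cultures was depleted of ribosomal RNA and sequenced, and the authors deposited 1 table of raw read counts per gene, without normalization. The methods name GRCh37.p13 as reference, whereas the submitters' processing notes name HISAT2 2.0.4 and GRCh38. The counter, the strand and the handling of multiply mapped reads are not given in the sources used here. The extraction text of the labels names a tissue in place of cell lines, and the groups were taken from titles and cell line labels. No sample column was left unused (0).

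Members and gene lists were chosen with earlier results of these data known. CPM used column totals, with exact Poisson 95% intervals. Genes with 10 or more counts in 2 or more libraries were tested with edgeR 4.0.16 (quasi-likelihood, TMM, Benjamini-Hochberg, threshold 0.05; R 4.3.3), after a trial on simulated counts. Alternatives were DESeq2 1.42.0, upper-quartile scaling, other filters, limma-trend (limma 3.58.1, prior count 2), all 8 libraries in 1 fit, a replicate block, and each library left out. In the hypoxia comparison the replicate number is the cell line, so it pairs libraries (same-line deviations correlated at 0.836, 0.857 and 0.82). Named genes are all members, list genes past the threshold with that block, up to 2 per list and comparison with the largest fold change at a mean of 1 CPM or more, and the 3 genes most correlated with each member. A few others were named after their values were seen. Pair ratios used (count + 1), and positions came from GENCODE 44 on GRCh37. Promoter sequences came from RefSeq (GRCh38.p14), with motifs searched on both strands. SciPy 1.17.1 and pandas 2.3.3 ran under Python 3.11.15.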

Additional observations from a re-analysis of the deposited data

Results flagged for a closer look

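CXCL8 drew attention because its hypoxia and untreated libraries differed past 2-fold in opposite directions in different lines. The log2 ratio of hypoxia over untreated was 3.04 in HCT116 (540 against 61 counts) and -2.15 in HCT8 (22 against 117 counts), while DLD1 lay near 0 with -0.26 (110 against 118 counts). The 95% counting intervals of HCT116 (2.68 to 3.47) and HCT8 (-2.93 to -1.54) were far apart, but each line had 1 library a side, so the difference between the lines was not tested.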

How the results depend on the processing

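Each line was 1 library, so the spread between repeat cultures is unknown, and CCL2, near 10 counts, had the widest counting intervals. The call of members for CRC over normal changed only with DESeq2, which called 2. Over the other lists, DESeq2 called 3 genes for CRC over normal and 7 for hypoxia, the replicate block called 11 for hypoxia and the block with DESeq2, added after seeing the data, 24, against 0 in the edgeR fit without the block. The block changed no call of a member. For CRC over normal the replicate number joins different lines and pairs nothing, and 0 members were called with it. With 50 counts as the minimum, DLD1 had 0 members over 2-fold higher and HCT8 had 1. With TMM library sizes HCT116 had 0 members over 2-fold lower, and with the 10 largest genes left out DLD1 had 1 member highest.

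Of the members' fold changes under settings that kept all libraries, 104 had the direction and the side of the threshold given in the report, and 2 passed the threshold, namely CXCL5 and CCL28 with DESeq2. Among list genes, CCL26 (CRC over normal) turned to -0.0458 with DESeq2, -0.00894 without the filter, -1.02 with limma-trend, -0.0179 with all 8 libraries and -1.16 with the block. DPP4 turned to 1.51 with limma-trend and 1.56 with the block, and ZFP36 to 0.44 and 0.99. CD14 under hypoxia turned to 0.31 with limma-trend, 0.23 with the block and 0.30 with the block in DESeq2. The cause was not tested.

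With each library left out in turn, 0 members and 0 list genes were called by edgeR in either comparison. CXCL5 and CCL28 missed the count minimum without DLD1 or HCT8 for CRC over normal, and CCL2 missed it in 2 of the 6 such fits for hypoxia, so those fits say nothing of them. The log2 fold change for CRC over normal then ranged from -0.68 to 2.41 for CXCL2, -0.23 to 0.73 for ADAM17, -0.94 to 0.59 for CCL26, -3.91 to 8.40 for DPP4, -2.78 to 0.75 for IFIT1 and -1.44 to 2.76 for ZFP36. For hypoxia without the block it ranged from -1.11 to 0.0517 for CXCL1, -0.75 to 0.33 for CXCL3, -4.20 to 2.86 for CXCL5, -0.64 to 2.02 for CXCL8 and -0.71 to 0.0407 for CXCL16. For list genes it ranged from -0.55 to 1.57 for ACKR2, -0.84 to 5.45 for CCL26, -0.72 to 0.56 for CD14, -0.11 to 1.81 for CX3CL1, -0.85 to 2.30 for VWF and -0.0408 to 2.19 for ZFP36.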
